A study of Homo sapiens with 32 samples.

Results

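The S455A line of THP-1 cells was compared with the wild type line in the absence of any stimulus. The comparison was defined by its libraries: 4 untreated S455A (SA) and 4 untreated wild type (WT) libraries, 8 of the 32 libraries of the series, and the 12367 of 60107 genes whose normalized counts averaged 10 or more over these 8 libraries. THP-1 is a human monocytic leukaemia cell line. All lines used here descend from THP-1 cells in which the gene of ATP-citrate lyase (ACLY) was knocked out. In the WT line the coding sequence of wild type ACLY was brought back by lentiviral transduction, so that "wild type" names the reintroduced enzyme and not the parental cells. The SA line carries ACLY with serine 455 replaced by alanine, which cannot be phosphorylated at that position. KO cells, which received no ACLY, and HA cells, which carry the catalytically inactive H760A enzyme, serve as references. Their untreated libraries, and the libraries of SA and WT cells after lipopolysaccharide (LPS, 100 ng/ml for 3 hours per the labels), are given where they bear on a gene. Each group has 4 libraries of total RNA. The constructs are driven by the EF1α promoter and each genotype is a single line, so any difference between the lines that is not due to residue 455 cannot be told apart from it. Nothing in the labels says that the 4 libraries of a group came from separate cultures, and the p-values measure the spread between these libraries.

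ACLY is an enzyme of the cytosol and the nucleus that splits citrate into oxaloacetate and acetyl-CoA. Acetyl-CoA feeds the synthesis of fatty acids and sterols and is the acetyl donor of histone acetyltransferases. Serine 455 is a substrate of Akt and of protein kinase A. According to the paper, its phosphorylation raised the activity of recombinant ACLY, whereas initial studies saw no difference in catalysis. The paper found ACLY activity intact in the SA line and nuclear levels of the enzyme above those of the WT line. In monocytes, type I interferons act through a complex of transcription factors that includes IRF9 and binds interferon-stimulated response elements in promoters and switches on genes for antiviral proteins.

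The changed residue is shown first because it is the only designed difference between the lines. It is encoded by codon 455 of ACLY, at chr17:41897813-41897815 of GRCh38 on the minus strand, in exon 13 of 29 of the GENCODE 44 transcript. The 63 bases of coding sequence around it, which run from exon 12 into exon 13, are given 5′ to 3′ with the serine codon in capitals.
ACLY codon 455: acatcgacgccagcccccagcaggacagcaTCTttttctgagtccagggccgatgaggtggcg

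ACLY itself (ENSG00000131473, chr17:41866917-41930542, minus strand) was counted at 117, 101, 90.6 and 97.1 normalized counts in WT libraries 1 to 4 and at 162, 158, 149 and 102 in SA libraries 1 to 4. The highest WT library exceeded the lowest SA library, so the groups overlapped. The means were 102 ± 11.4 and 143 ± 27.8 (SD, n = 4), the log2 difference was 0.47 with a 95% interval of 0.04 to 0.90, and the exact permutation test gave a two-sided p of 0.0571, where 0.0286 is the smallest p that 4 against 4 libraries allow. KO cells were at 67.2 to 107 and HA cells at 67.2 to 133. The construct holds the coding sequence and the library kit reads transcript ends, so these counts need not come from the reintroduced copy, and they checked neither the knockout nor the labels.

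The 8 libraries held 6688646 to 14724448 reads on genes. WT replicate 3 and SA replicate 1 stood apart from the others of their groups, with 16334 and 16474 genes detected against 16821 to 18139 elsewhere, and on the first principal component (49.8% of the variance) they lay at 45.4 and 55.6, SA replicate 4 at 28.1 and the other 5 libraries between -33.1 and -5.61. The component therefore separated libraries within both lines rather than the lines. Of 33 monocyte and myeloid markers 31 passed the count limit, among them CD14, CD33, LYZ, ITGAM and CSF1R, while 4 of 32 markers of other cell types did and 13 had no read in any of the 8 libraries. Because all cells of a culture are read together, fewer cells of a type and less RNA per cell cannot be told apart.

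No gene differed between untreated SA and WT cells at the study's limit of an adjusted p below 0.01 (limma on log2(normalized count + 1), Benjamini-Hochberg over all 12367 genes, 0% called). At an unadjusted p below 0.05 there were 909 genes, or 7.35% of those tested, 501 of them higher and 408 lower in SA cells. The smallest adjusted p was 0.0847 for MACROD2, followed by 0.668. The limma-voom fit on recovered reads called none either and had 936 genes at an unadjusted p below 0.05. The 4 SA values lay all above or all below the 4 WT values for 527 genes (4.26%), of which 295 were higher (2.39%) and 232 lower (1.88%) in SA cells. Without WT replicate 3 and SA replicate 1 there were again no calls, with 1810 genes at an unadjusted p below 0.05 (699 higher, 1111 lower). A second joint scale, the trimmed mean of M-values over the 8 libraries, gave 522 genes higher and 380 lower at an unadjusted p below 0.05. Its median over all genes was -0.008 on the log2 scale. The deposited scale was set for each line separately and so does not put the lines on a common level. On it the median over all genes moved from -0.01 to 0.24, and 2890 genes were higher against 32 lower at an unadjusted p below 0.05.

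The width of the intervals sets what 0 calls can mean. The 95% interval of the difference lay within 1 log2 unit on either side of 0 for 8953 genes (72.4%). This share was 26.7% of the 2944 genes with a mean of 10 to 50 counts, 82.9% of the 6056 genes with 50 to 500 counts and 93.4% of the 3367 genes above. For most genes of middle and high level a 2-fold difference between the lines was thus outside the interval, whereas for most genes of low level it was inside. The middle 90% of the estimated differences ran from -0.63 to 0.50.

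**Figure D1:**
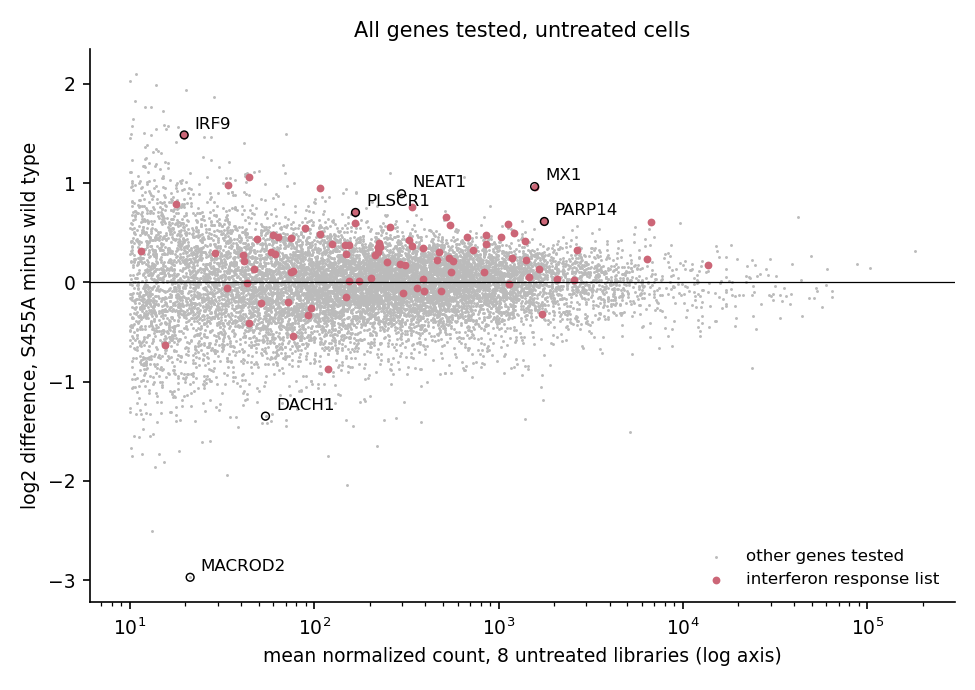
Log2 difference between untreated SA and WT cells (vertical axis) against the mean normalized count over the 8 libraries (horizontal log axis) for all genes tested, each point a gene and red points the 88 tested genes of the interferon response list. Most red points lie above 0, and MACROD2 is the lowest point at -2.97.

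The 10 genes with the smallest p in each direction are described next as the upper end of a ranking in which nothing was called. MACROD2 (ENSG00000172264, chr20:13995369-16053197, plus strand), a mono-ADP-ribosylhydrolase that removes ADP-ribose from proteins, stood at 28.6, 31, 58.2 and 36.8 normalized counts in the WT libraries and at 5.0, 3.57, 3.29 and 3.77 in the SA libraries. All SA libraries were below all WT libraries, with a log2 difference of -2.97 (95% interval -3.79 to -2.15, adjusted p = 0.0847 by limma). KO cells were at 1.28 to 12.1 and HA cells at 5.08 to 24.8, so that the WT line was the one with the high level. SA cells differed from KO cells by -0.53 (95% interval -1.68 to 0.62) and from HA cells by -1.35 (-2.50 to -0.20). The same order held after LPS, with 32.9, 31.2, 56.2 and 33.3 counts in WT and 15, 5.13, 2.32 and 4.28 in SA libraries, again without overlap.

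DACH1 (ENSG00000276644, chr13:71437966-71867204, minus strand), a nuclear factor of the dachshund family that acts as a transcriptional corepressor, had the same shape. Its WT libraries were at 61.5, 77, 81.7 and 93.6 and its SA libraries at 35.6, 20.5, 32.1 and 33.9 normalized counts, a log2 difference of -1.35 (-1.90 to -0.79, adjusted p = 0.668 by limma). KO cells were at 26.9 to 32.2 and HA cells at 25.4 to 37, both within the range of SA cells or just above it. After LPS the WT libraries held 50.9, 64.2, 93.7 and 80.1 counts and the SA libraries 0, 40.4, 36 and 29.9, where SA replicate 1, the library with the fewest genes detected (13460), had no read. Over all genes tested, 43 (0.348%) had all 4 WT libraries above all 12 other untreated libraries and 46 (0.372%) had them below. MACROD2 and DACH1 were among the former and PARP14 and PLSCR1 among the latter.

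The other 8 genes that were lower in SA cells differed by less. ANXA5, the phosphatidylserine-binding annexin A5, was at 853, 803, 883 and 824 in WT and at 514, 612, 681 and 499 in SA libraries (-0.55). PRKCD, the kinase PKCδ, was at 862, 1003, 895 and 803 against 613, 421, 716 and 453 (-0.72). Both genes had no overlap between the lines. TWF2, an actin-binding twinfilin, differed by -0.66, DDOST, a subunit of the oligosaccharyltransferase, by -0.65, and HNRNPA2B1, an RNA-binding protein of the hnRNP family, by -0.64. COL4A2, a chain of basement membrane collagen, differed by -0.90, UBA1, the ubiquitin-activating enzyme, by -0.43 and IER5L by -0.86. In KO cells PRKCD and ANXA5 had means of 841 and 1021, near or above the WT means of 891 and 841.

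Among the 10 genes that were higher in SA cells, PARP14 (ENSG00000173193, chr3:122680839-122730840, plus strand) had the smallest p. It is an interferon-induced ADP-ribosyltransferase. Its WT libraries held 1375, 1332, 1553 and 1348 and its SA libraries 2264, 2087, 2139.6 and 2081 normalized counts, which is a log2 difference of 0.61 (0.37 to 0.86, adjusted p = 0.668 by limma) without overlap. NEAT1 (ENSG00000245532, chr11:65422774-65445540, plus strand), the long noncoding RNA that scaffolds paraspeckles, was at 159, 230.2, 206 and 241 in WT and at 354, 344, 388 and 460.1 in SA libraries (0.89, 0.52 to 1.27). It was the only one of the 20 genes whose 4 SA libraries lay above all 12 other untreated libraries, as 25 genes did in all (0.202%). NEAT1 was called higher in SA than in KO cells (1.40, adjusted p = 0.000791 by limma) and than in HA cells (1.15, adjusted p = 0.00685). After LPS the lines overlapped, with 195 to 486 counts in WT and 307 to 499 in SA cells. MALAT1, another nuclear RNA, was at 5290.1, 7618, 8788 and 8473 in WT and at 11370.2, 7396, 17680.2 and 10486 in SA libraries (0.59), and cytosolic ribosomal protein genes had a median of -0.13 (-0.03 without SA replicate 1). The part of nuclear RNA content in these values was not tested.

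SENP1 (ENSG00000079387), a protease that removes SUMO, was at 127, 119, 94 and 131 in WT and at 244, 195, 229 and 216 in SA libraries (0.91), and MYSM1, a histone H2A deubiquitinase, at 71.6, 82, 112 and 77 and 163, 143, 179 and 137 (0.86). SMG1, a kinase of nonsense-mediated decay, differed by 0.63, and PER2, a repressor of the circadian clock, by 0.81. All 4 were without overlap between the lines. EEF1A1 (1.07) and the Y RNA gene RF00019 (ENSG00000202222, 1.49) were also among the 10, and both are uncertain, since they have near-identical copies in the genome among which reads can be split. PLSCR1 is described with the interferon genes.

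**Figure D2:**
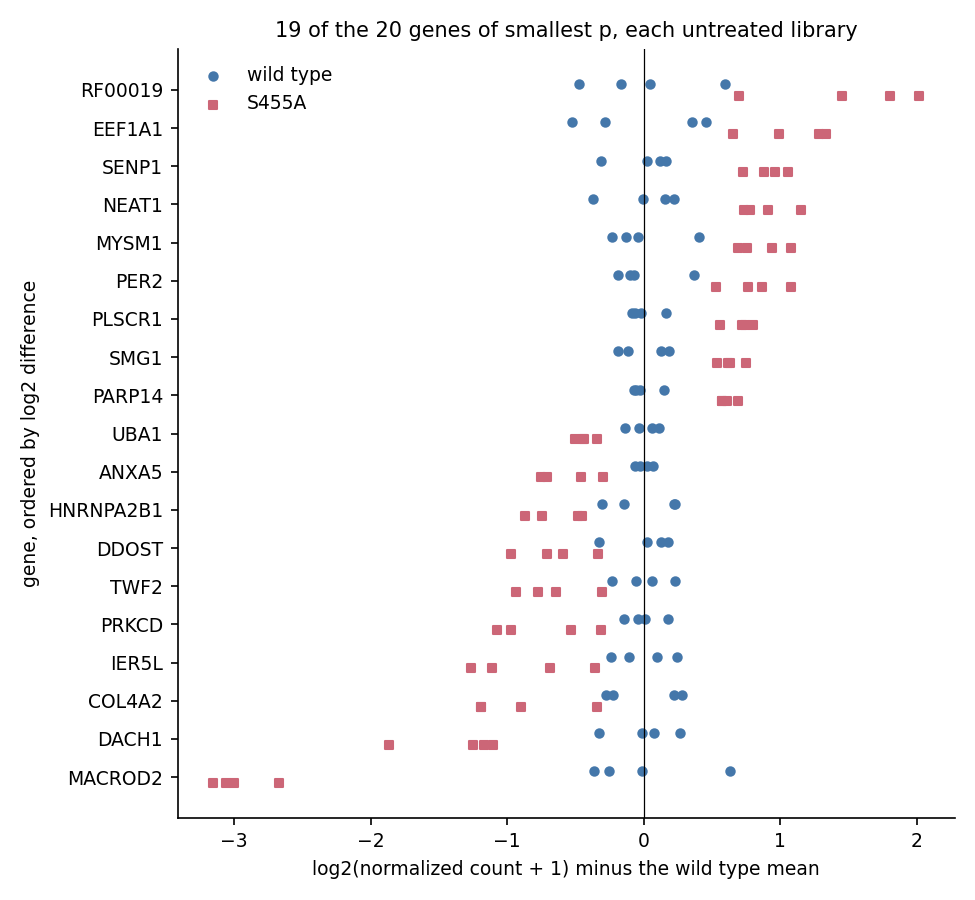
The 19 genes shown of the 20 with the smallest p in the 4 WT libraries (blue circles) and the 4 SA libraries (red squares), as log2(normalized count + 1) minus the mean of the WT libraries (horizontal axis). The lines do not overlap in any row, and the distance is widest for MACROD2 at -2.97.

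The interferon response was the gene list with the highest median apart from the short list of genes named by the study. It comprises antiviral effectors, sensors and the transcription factors that induce them. The list was chosen with earlier results of these data known and was not tested as a set, so its shares are descriptions. Of its 91 genes 88 were tested, and 71 of them (80.7%) were higher in SA than in WT cells, against 48% of all genes. The median log2 difference was 0.28, with -0.01 over all genes. None was called, 25 were higher at an unadjusted p below 0.05 and 0 lower, where the share of all genes was 4.05% and 3.3%. The mean of the 88 genes on the log2 scale was 7.68, 7.67, 7.81 and 7.95 in WT libraries 1 to 4 and 7.97, 8.01, 8.08 and 8.10 in SA libraries 1 to 4. The lines did not overlap, but the highest WT library and the lowest SA library were neighbours at 7.95 and 7.97.

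Most of the genes that make up this median are established interferon targets. PLSCR1 (ENSG00000188313, chr3:146515180-146544856, minus strand), an interferon-induced phospholipid scramblase, was at 122, 119.7, 125 and 143 in WT and at 222, 187, 209.6 and 213 in SA libraries (0.70, 0.38 to 1.03). IFI44L (ENSG00000137959, chr1:78619902-78646145, plus strand), an interferon-induced cytosolic protein, was at 417, 365, 438 and 522 and 598, 558, 763 and 685 (0.58, 0.24 to 0.92). Neither gene overlapped between the lines. IFIH1, the double-stranded RNA sensor MDA5, was at 220.4, 181, 279 and 346 and 514, 393, 371 and 429 (0.76), and RNF213, a large ubiquitin ligase, at 331, 429, 506 and 357 and 632, 662, 575 and 659 (0.66). In MX1, an antiviral GTPase, the lines overlapped, with 833, 803, 1476 and 1160.5 in WT and 2278, 2013, 1402 and 2592 in SA libraries (0.97). Altogether 9 genes of the list had all SA above all WT libraries and 0 had them below, the former including PARP14, PLSCR1, IFI44L, IFIH1, RNF213, SAMD9, TRIM5 and IRF9. This is 10.2% of the list, with 2.39% among all genes.

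Other core members did not follow. IRF7, the factor that amplifies the interferon response, differed by 0.01, OAS1, a sensor of double-stranded RNA, by 0.04 and ADAR, which edits such RNA, by 0.03. IFIT1 (-0.33), BST2 (-0.32), CXCL10 (-0.25) and OASL (-0.41) had lower means in SA than in WT cells, none of them past an unadjusted p of 0.05. IFI27, which had the highest count of the list, was at 15344, 11334, 11754 and 12996 and 14593, 15074, 13547 and 14299.8 (0.17). Of the interferon-related genes the study names, GBP1, a guanylate-binding GTPase, was at 18.6, 17.6, 17.9 and 37.6 in WT and at 26.3, 52.7, 49.3 and 53.7 in SA libraries (0.98, 0.22 to 1.74). The intervals of IFI44 (0.39), EPSTI1 (0.31), IFIT2 (0.31) and CXCL11 (0.79) included 0. The paper reported GBP1 and these genes as higher in SA than in WT cells after LPS. For untreated cells it reported no gene as higher in SA cells at an adjusted p below 0.01 by DESeq2.

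Without WT replicate 3 and SA replicate 1, 73 of the 88 interferon genes were above 0 with a median of 0.30. On the deposited scale the median was 0.54, which is 0.30 above the median of all genes on that scale, and on the joint scale the same distance was 0.30. Leaving out any single library kept the median between 0.23 and 0.32.

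The promoters of 3 of these genes are shown because their SA and WT libraries did not overlap and because each holds the letters GAAA, any 2 bases and GAAA again, the core of the interferon-stimulated response element. The motif was searched on both strands in RefSeq promoters (GRCh38.p14) from 250 bases before to 50 bases after the gene start, and no other motif was searched. Of the 88 tested interferon genes 65 matched a promoter by symbol and 42 of them (64.6%) held it, as did 362 of 9142 tested genes with a promoter (3.96%). These shares describe a list made up of interferon response genes and are not a comparison of SA with WT cells. The stretches below lie before the RefSeq gene start, which for PLSCR1 and IFI44L is downstream of the start in GENCODE, so that their stretches lie inside the GENCODE genes, and are written 5′ to 3′ on the strand of the gene, with the motif in capitals.
PARP14 (chr3:122680749-122680838, plus strand, motif beginning 29 bases before the start): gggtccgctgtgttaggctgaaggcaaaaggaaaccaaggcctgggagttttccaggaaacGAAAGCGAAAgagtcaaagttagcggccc
PLSCR1 (chr3:146544648-146544737, minus strand, motif beginning 79 bases before the start): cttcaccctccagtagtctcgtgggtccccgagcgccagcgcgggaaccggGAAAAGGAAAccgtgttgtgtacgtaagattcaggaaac
IFI44L (chr1:78620263-78620402, plus strand, motifs beginning 164 and 73 bases before the start): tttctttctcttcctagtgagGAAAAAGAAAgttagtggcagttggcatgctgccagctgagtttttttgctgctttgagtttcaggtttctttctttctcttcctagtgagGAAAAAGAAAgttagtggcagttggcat
The copies in IFI44L sit in a repeated stretch and share all 10 letters. A match is a description of the sequence and not evidence of a bound site.

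How far SA cells were from the lines without ACLY activity was tested directly in the 16 untreated libraries. In one fit with a mean for each line, 294 genes (2.38%) were called between SA and KO cells, 128 higher and 166 lower in SA cells, and 162 genes (1.31%) between SA and HA cells, 83 higher and 79 lower. The same fit called none between SA and WT cells, with 649 genes (5.25%) at an unadjusted p below 0.05. The 3 comparisons share the SA libraries. With the trimmed mean of M-values as the joint scale, 127 genes were higher and 166 lower in SA than in KO cells. Against HA cells these were 85 and 74. On the deposited scale, which was set for each line separately, 1020 genes were higher and 98 lower in SA than in KO cells, and against HA cells these were 127 and 60.

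Interferon genes lay lower in SA cells than in both of these lines. Against KO cells 45 of 88 were called lower and 0 higher (median -1.28), where 1.34% and 1.04% of all genes were. Against HA cells 7 were called lower and 0 higher (median -0.59), with 0.639% and 0.671% of all genes. The mean of the list was 7.78 ± 0.13 in WT, 8.04 ± 0.0611 in SA, 8.64 ± 0.278 in HA and 9.43 ± 0.119 in KO cells (log2 scale, SD over 4 libraries). For 70 of the 88 genes the SA mean lay between the means of WT and KO cells. This adds little to the 71 genes above WT cells, since the KO mean of the list was far higher. IFI44L, for instance, was at 2847 to 4753 in KO and 1192 to 1994 in HA cells, and its SA level was called lower than both, by -2.58 (adjusted p = 5.18e-07 by limma) and -1.17 (adjusted p = 0.00175). PARP14 was called lower in SA than in KO cells (-1.08, adjusted p = 0.00046) and had an adjusted p of 0.083 against HA cells (-0.52).

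MHC class II genes, which present peptides to helper T cells, separated SA cells from the inactive lines in the same direction. Of 13 tested 9 were called lower in SA than in KO cells (1.34% of all genes) and 9 lower than in HA cells (0.639% of all genes), while against WT cells the median was 0.09 and none was called. HLA-DRB1 had 2626, 2321, 3235 and 2847 counts in WT, 4983, 2947, 2128 and 4721 in SA, 6666 to 13692 in KO and 7971 to 12854 in HA libraries. SA and WT libraries overlapped, and both stayed below all KO and HA libraries, though reads of HLA-DRB1 can be split with its near-identical paralogs. VCAN, a proteoglycan of monocytes, took an intermediate place, with 609.7, 689, 755 and 539 in WT, 1242, 1012, 1098 and 771 in SA, 939 to 1705 in HA and 1936 to 3288 in KO libraries. Its SA level lay above all WT libraries (0.66, adjusted p = 0.668 by limma) and was called lower than in KO cells (-1.40, adjusted p = 0.000563).

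**Figure D3:**
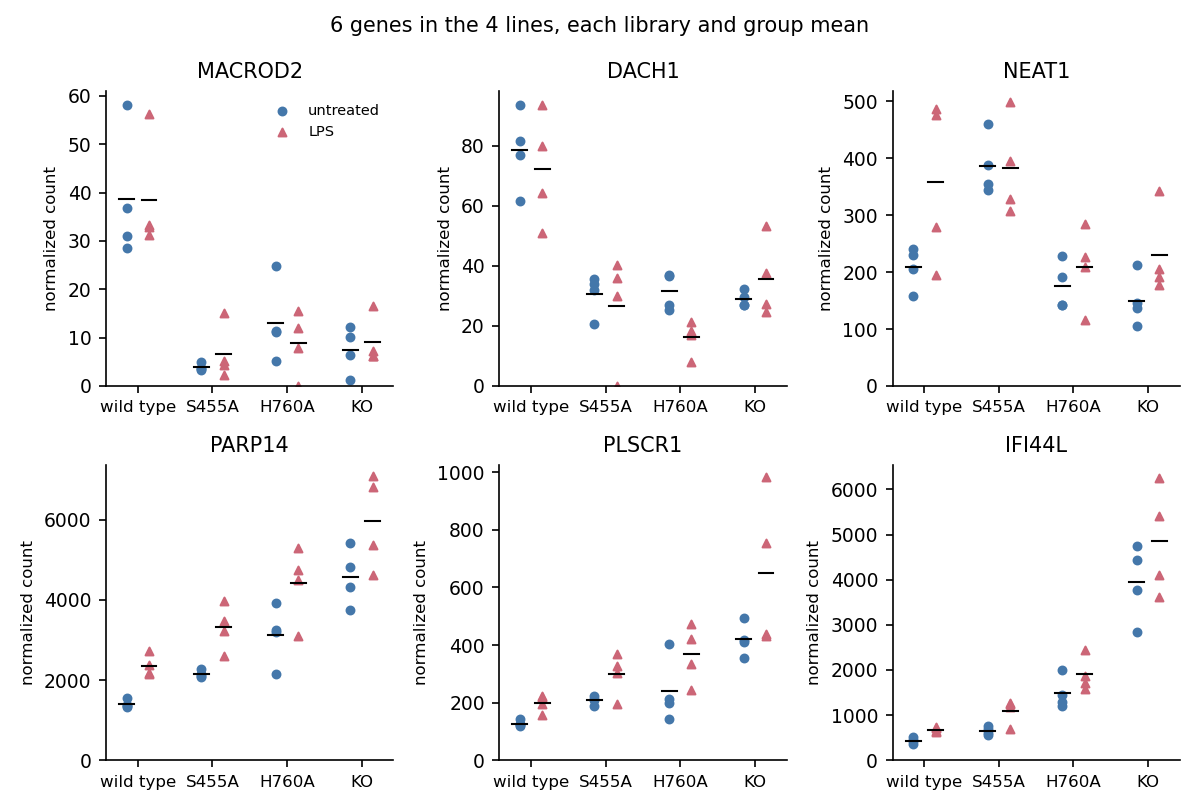
Normalized counts of 6 genes in the WT, SA, HA and KO lines, untreated (blue circles) and after LPS (red triangles), each point a library and each bar the mean of 4. In MACROD2 and DACH1 the WT line stands above the other lines, in NEAT1 the untreated SA line does, and in PARP14, PLSCR1 and IFI44L the untreated means ascend from WT to SA, HA and KO cells.

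Genes of the pathways around ACLY showed no called difference between SA and WT cells. In the list of acetyl-CoA and citrate metabolism 19 of 45 genes tested were above 0, with a median log2 difference of -0.08. ACACA, which carboxylates acetyl-CoA in the first step of fatty acid synthesis, was at 339, 335, 378 and 374 in WT and 446, 425, 417 and 462 in SA libraries (0.30, adjusted p = 0.668 by limma). ACSS2, which makes acetyl-CoA from acetate, was at 106, 86.2, 115 and 91 and 139, 104, 113 and 156 (0.35, -0.07 to 0.77). For fatty acid synthesis and desaturation 15 of 28 genes tested were above 0, with a median log2 difference of 0.03. FASN, the fatty acid synthase, was at 1998, 2209, 2185 and 1716 and 2705, 2962, 1819 and 3082 (0.36, -0.03 to 0.75), where SA replicate 3 fell among the WT libraries. For sterol synthesis 9 of 30 genes tested were above 0, with a median log2 difference of -0.04. Of the cholesterol exporters, ABCA1 was at 63, 36, 28 and 36.8 and 59.4, 144, 80.6 and 95.2 (1.18, 0.48 to 1.89, adjusted p = 0.668 by limma), and only WT replicate 1 reached into the SA range. ABCG1 was under the count limit with at most 3.29 counts.

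For histone acetylation enzymes and their readers 30 of 46 genes tested were above 0, with a median log2 difference of 0.08. HDAC8, a deacetylase, was at 260.5, 290.4, 297 and 297 in WT and 245, 199, 215 and 201 in SA libraries (-0.41), without overlap and not called (adjusted p = 0.668 by limma). For the kinases of serine 455 and their regulators 22 of 40 genes tested were above 0, with a median log2 difference of 0.04. PRKAR2B, a regulatory subunit of protein kinase A, was at 654, 703, 746 and 657 and 1255, 946, 744 and 986 (0.49), PHLPP1, a phosphatase of Akt, at 358, 347, 442 and 319 and 675, 487, 415 and 509 (0.50), and SA replicate 3 lay within the WT range for both. AKT2, the most counted gene of the list, had 2964 to 3248 in WT and 2505 to 5662 in SA cells.

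Inflammatory genes had low counts and a wide spread in untreated cells. Of 42 cytokine and chemokine genes found 15 were tested and 7 were above 0 (median -0.10). CCL2, a chemoattractant of monocytes, was at 44.4, 42.7, 11.2 and 50.8 in WT and 1.88, 23.2, 124 and 7.54 in SA libraries, where the SA values span the whole WT range and beyond (-1.02, -3.14 to 1.10). IL6 had no read in any of the 8 libraries, and CCL4 had at most 12.5 counts. IL1B (-0.65, -1.38 to 0.08) and IL18 (-1.35, -2.55 to -0.15) overlapped between the lines. For NF-κB feedback genes 13 of 28 genes tested were above 0, with a median log2 difference of -0.06, and for immediate early factors 6 of 20 genes tested were above 0, with a median log2 difference of -0.10. For MHC class I and peptide loading 8 of 20 genes tested were above 0, with a median log2 difference of -0.03. B2M, the light chain of MHC class I, was at 32102, 29844, 27792 and 24864 and 25522, 17498, 22886 and 17578 (-0.47, -0.84 to -0.10, adjusted p = 0.668 by limma).

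Housekeeping and stress programmes stayed near the median of all genes. Cell cycle genes had a median of 0.02 (28 of 51 above 0), glycolysis and pentose phosphate genes -0.04 (12 of 31), ATF4 targets of amino acid stress -0.05 (14 of 32), NRF2 targets -0.05 (9 of 21), and nuclear-encoded respiratory chain genes -0.08 (17 of 47). Genes of LXR targets and cholesterol efflux had -0.06 (4 of 13), mitochondrially encoded transcripts -0.11 (4 of 15), nuclear-retained noncoding RNAs 0.09 (5 of 9) and the tested markers of other cell types -0.03 (2 of 4). Of the 9 nuclear-retained RNAs 3 were higher at an unadjusted p below 0.05 and 0 lower, against 4.05% and 3.3% of all genes. Library means of that list overlapped slightly, with 8.66 to 8.94 in WT and 8.92 to 9.37 in SA cells. Apart from monocyte markers, described next, the lowest medians were those of hypoxia genes at -0.20 (1 of 15 above 0), heat shock and unfolded protein response genes at -0.13 (6 of 24) and ribosomal protein genes at -0.13 (18 of 76), and on the deposited scale these 3 medians turned to 0.06, 0.13 and 0.13 with the shift of all genes. The library means of all 3 lists overlapped between the lines. The hypoxia and ribosomal protein medians depended on SA replicate 1, without which they were -0.04 and -0.03, and the heat shock median was -0.08 without WT replicate 4.

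Monocyte and myeloid markers were the only list with all SA library means below all WT library means. Of 31 tested 7 were above 0, with a median of -0.16 that became 0.10 on the deposited scale, which is -0.15 relative to all genes there. The library means ran from 9.29 to 9.39 in WT and from 9.13 to 9.24 in SA cells on the log2 scale. CD4, which monocytes carry, was at 522, 594, 727 and 675 in WT and 551, 467, 442 and 441 in SA libraries (-0.40), and CTSG, the protease cathepsin G, which had the highest count of the list, at 30637, 32868, 40459.6 and 40099.5 and 28978, 32879, 32204 and 45861 (-0.05). Against this trend stood VCAN, described above, CD14 (0.36) and CSF1R (0.41). The list was not called gene by gene, with 1 gene each way at an unadjusted p below 0.05.

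**Figure D4:**
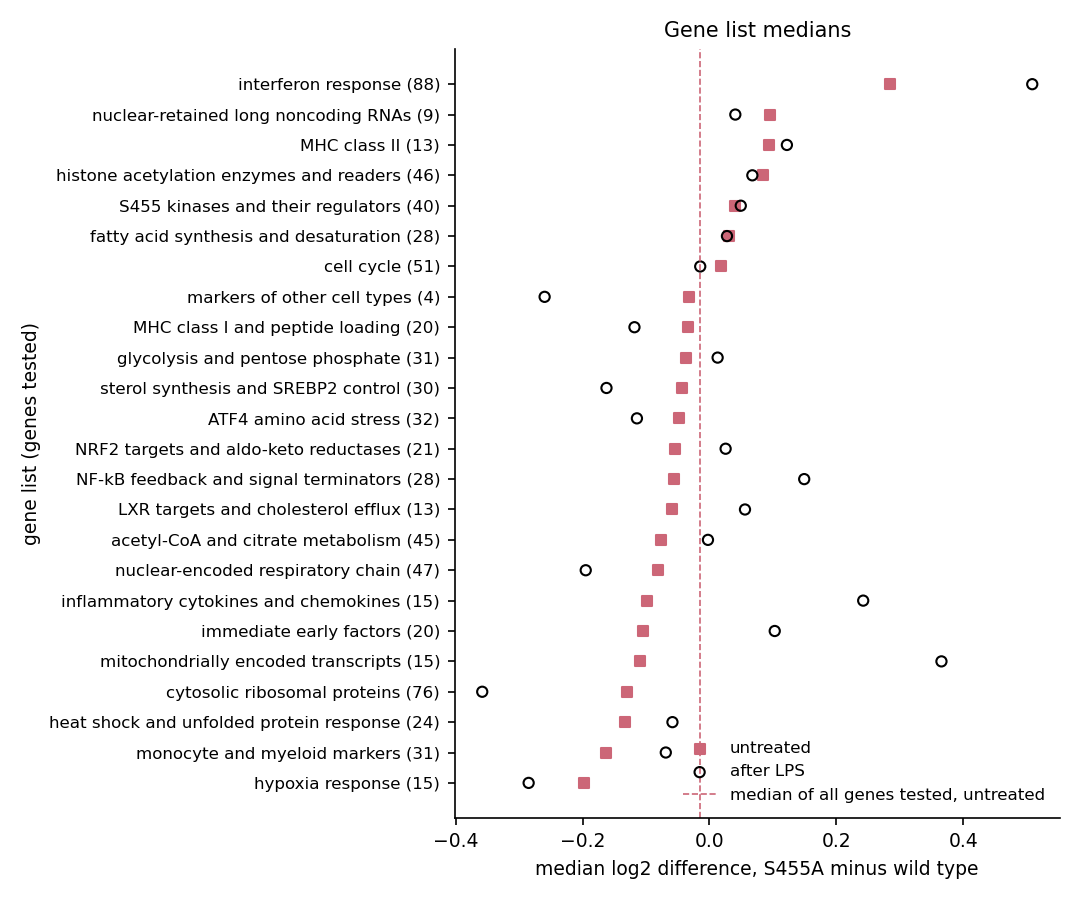
Median log2 difference between SA and WT cells (horizontal axis) for 24 gene lists with the number of genes tested in brackets, untreated (red squares) and after LPS (open circles), the dashed line marking the median of all genes in untreated cells. The interferon response lies furthest to the right in both conditions, at 0.28 and 0.51.

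The LPS libraries of the SA and WT lines are separate libraries and gave a second reading of the same contrast. Nothing in the labels says whether an untreated and an LPS library of the same number came from separate cultures. The interferon list was chosen with earlier results of these data known, so this reading is not an independent check of the list. Again no gene was called (0% of 12367 genes by limma). At an unadjusted p below 0.05 there were 162 genes (1.31%), or 431 without SA LPS replicate 1, the library with few genes detected. At the same adjusted p limit, the paper's DESeq2 test called CXCL11, IFI44, GBP1, EPSTI1 and IFIT2 higher in SA cells after LPS. The limma fit did not reproduce these calls. Of the 12 tested genes that the study names in its text, 10 were higher in SA cells after LPS, against 47.3% of all genes. Their median was 0.56, and for 5 all SA libraries lay above all WT libraries, against 1.25% of all genes. For 0 did they lie below. This list also holds genes that the paper did not call. DESeq2 was not run here, voom was run only on the untreated libraries, and the source of the difference was not tested. Interferon genes were higher in SA cells for 81 of 88 genes, against 47.3% of all genes, with a median of 0.51. For 27 of them the lines did not overlap (30.7%, against 1.25% of all genes), for none did all SA libraries lie below all WT libraries (1.37% of all genes), and 66 were above 0 in both conditions. Without SA LPS replicate 1, 84 were above 0, the median was 0.45 and 43 did not overlap, against 3.18% of all genes, since fewer libraries overlap less. GBP1 held 40.4, 50.3, 69.1 and 48.4 counts in WT and 149, 129.5, 143 and 114 in SA libraries after LPS, a difference of 1.36 (0.84 to 1.89, adjusted p = 0.674 by limma). TRIM5, an antiviral restriction factor, held 56.9, 63.3, 97.3 and 54.7 and 207, 135, 130.1 and 115 (1.10).

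Of the 20 genes ranked highest without LPS, 18 had the same sign after LPS, where 56.6% of all genes had, but without the SA LPS library with few genes detected it was 12. Only MACROD2 and DACH1 kept lines without overlap in the same direction in both conditions, as did 18 genes in all (0.146%), and without SA LPS replicate 1 it was 3 of the 20. The shares of 56.6% and 0.146% include that library, so they do not match the counts of 12 and 3. SENP1 (0.37 after LPS) and PER2 (0.17) overlapped. Tested as a change of the SA minus WT difference with LPS over 16 libraries, limma called no gene, its lowest adjusted p being 0.996, and 406 genes (3.28%) passed an unadjusted p of 0.05, or 858 without SA LPS replicate 1. The change had a median of 0.22 over the interferon genes and of -0.03 over all genes, with 7 interferon genes at an unadjusted p below 0.05.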

How the data were processed

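Total RNA was sequenced from its 3′ ends with the QuantSeq kit, in 4 libraries per group. Per the methods the authors used Bbduk for trimming, STAR for alignment to GRCh38, HTSeq-count for counting and DESeq2 for normalization and testing; versions and the annotation release are not given in the sources used here. The deposited values are normalized counts, divided by size factors computed separately for each line. Each value above 0 was a whole multiple of 1 number per library within 0.05 reads in 100.000% of values, so reads were recovered and divided by median-of-ratios factors over all 32 libraries (11489 genes); this common scale assumes that few genes differ between the lines. The 92 spike-in rows held 1 read and were left out, and 3463 genes have no symbol.

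Genes with a mean of at least 10 over the 8 untreated SA and WT libraries were tested with limma 3.58.1 (R 4.3.3) on log2(normalized count + 1), empirical Bayes with a trend, those 8 libraries only and no replicate term, and p-values were adjusted over all genes with a limit of 0.01. Differences are on that scale, which understates changes of low genes. The LPS libraries, the interaction and the comparisons with KO and HA cells were fitted in the same way. Named were the genes the study names, the 10 genes with the smallest p in each direction (none was called) and, from each of 25 gene lists, the 2 members with the smallest p and the one with the highest count. OAS1, IRF7, ADAR, IFIT1, BST2, CXCL10, OASL, IFIH1, RNF213, MX1, SAMD9, TRIM5, IRF9, IFI44L, CD14, CSF1R, LYZ, CD33 and ITGAM were named beside this rule, after their values were seen. Members and lists were chosen with earlier results of these data known, and some lists come from earlier work on them; no list was tested as a set. Positions are those of GENCODE 44. Scripts were tested on simulated data. Pairs of libraries within a line differed by a chi-square of 4.74 or more per gene over genes with at least 50 reads, so none was a copy. Reads are not independent molecules. Genes near the limit of 10 counts carry counting error beside the spread between libraries. LPS is 100 ng/ml in the labels, and the methods are not uniform on this. Other scales, filters, pseudocounts, fits and left-out libraries were tried as alternatives. Some genes that meet the rule are not reported here, though counts include them.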

Additional observations from a re-analysis of the deposited data

Results flagged for a closer look

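In 194 groups of 4 untreated libraries examined, 15 held a library far from the other 3 by Dixon's 95% limit. Chance alone gives about 1 in 20. The library with the most reads on genes among SA libraries was replicate 1, with 14724448 against at most 11070456.

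WT replicate 3 was the distant library for AKR1B1 (582 normalized counts, nearest other 651), PECAM1 (2915, nearest 2464), the list means of the nuclear-encoded respiratory chain (10.50, the others from 10.95) and of the hypoxia response (7.48, the nearest other 8.0). SA replicate 1 was the distant one for GBP1 (26.3, nearest 49.3), UQCRB (8729.6, nearest 11372), and the list means of cytosolic ribosomal proteins (13.16, the others from 13.61) and of LXR targets and cholesterol efflux (6.67, the others from 6.95). These are the 2 libraries that stood apart on the first principal component.

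WT replicate 4 was distant for GBP1 (37.6, nearest 18.6) and EPSTI1 (234, nearest 189), WT replicate 2 for the list mean of NF-κB feedback genes (8.09). SA replicate 3 was distant for EPSTI1 (328, nearest 227) and TNFAIP2 (998, nearest 586), and SA replicate 4 for the list mean of MHC class II (7.80). List means are on the log2 scale. The part of these libraries in the differences was not tested beyond leaving each out.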

How the results depend on the processing

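The count of genes called between untreated SA and WT cells was 0 under every alternative run. Genes at an unadjusted p below 0.05 numbered 909 of 12367 tested in the main fit. With no count filter they were 1366 of 23321 tested, a larger set of genes. Their number was 2922 on the deposited scale, 438 with all 32 libraries in the fit and 462 with a replicate block. It was 2934 with library weights (156 of them at an adjusted p below 0.05) and 1810 without WT replicate 3 and SA replicate 1. Over single left-out libraries it ran from 483 to 2169, lowest without WT replicate 1 and highest without WT replicate 3. Without SA replicate 3 it was 1875. Genes without overlap numbered 1794 on the deposited scale (1774 higher, 20 lower), 2348 without WT replicate 3 and SA replicate 1 and 694 to 1942 over single left-out libraries; fewer libraries overlap less by construction. Against KO cells 1118 genes were called on the deposited scale and 189 to 340 over left-out libraries, and against H760A cells 89 to 242; the cause was not tested. The interaction called 0 under all its alternatives. ACLY kept its direction, at 0.40 to 0.62 over left-out libraries. UQCRB turned to 0.016 on the deposited scale; 1438 other values of named genes kept direction and side. Of the list medians 414 moved by less than the spread between libraries and 36 by more, 21 of these on the deposited scale. Replicate numbers did not pair WT and SA libraries (correlations of deviations -0.33, 0.23, -0.57 and -0.20, and 1 of 8 libraries correlated best with its own number). The planned edgeR and DESeq2 fits were not run, since the decimal commas of the tables kept the reads from being accepted as counts; voom was used in their place. The voom fit, the fits without the libraries that stand apart and over 16 libraries were chosen after seeing the data.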

Other observations

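A difference of more than 1 log2 unit without overlap between the lines was seen in 30 genes that were higher and 20 that were lower in untreated SA cells. Most of them had low counts. The genes described here were chosen after their values were seen, and none was called. DCN, the matrix proteoglycan decorin and one of the markers of other cell types, was at 21.5, 23.4, 21.3 and 16.6 normalized counts in WT and at 8.13, 10.7, 11.5 and 4.71 in SA libraries, with 0 to 3.85 in KO and 0 to 1.76 in HA cells, so that the line order for DCN was WT, SA and then the inactive lines. ALDH1A1, which oxidises retinal, had means of 34.7 in WT and 17.1 in SA cells, and ALDH7A1, another aldehyde dehydrogenase, of 15.6 and 4.77. In the other direction, NFAT5, a factor of the osmotic stress response, had means of 27.3 in WT and 56.9 in SA cells, and MICA, a ligand of the receptor NKG2D, of 22.2 and 42.2.

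Across the 12367 genes the SA minus WT differences of untreated and LPS libraries had a Pearson correlation of 0.14. The conditions share no library, though both are read on the same lines, and genes are not independent replicates.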
